A study of Mus musculus with 6 samples.

Results

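The genes described here are 40 mouse genes of oxidant defence and NADPH supply: the transcription factor NRF2 and its targets, the glutathione, thioredoxin and peroxiredoxin systems, and the enzymes of the pentose phosphate pathway. They were taken by symbol from the 32285 genes of the deposited count table, and all 40 were among the 14912 genes with enough counts to be tested. RNA came from germline stem (GS) cells, cultured spermatogonial stem cells, of the single line named DBA-GFP with wild-type genotype, which both groups share. The control group of 3 libraries was grown in complete medium and the second group of 3 libraries in a medium named for 8 mM pyruvate. The labels say no more of either medium. The comparison asks how redox and NADPH genes differ between cells grown in these media, in a study titled for alanine metabolism and bioenergetic balance.

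Cells destroy hydrogen peroxide and lipid peroxides with peroxidases that take their electrons from glutathione or thioredoxin. Both carriers are reduced again by enzymes that spend NADPH, and NADPH is regenerated by the oxidative pentose phosphate pathway, by isocitrate dehydrogenases, by malic enzyme and by folate enzymes. NRF2, held low by KEAP1 and released when KEAP1's cysteines are oxidized, switches on many of these genes through a short promoter sequence called the antioxidant response element. In spermatogonial stem cells reactive oxygen species are known both as a hazard and as a signal for self-renewal.

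The core of this element was searched as TGACNNNGC on both strands in RefSeq promoter windows (250 bases before to 50 after a transcription start, GRCm38.p6), as the only motif searched. Windows were held for 35 of the 40 genes, and 8 of these (22.9%) had a match: Nfe2l2, Srxn1, Gclm, Txnrd1, Prdx1, Sod1, G6pdx and Pgd. Hmox1, Gclc, Gsr, Gsta4 and Prdx6 had no window and were not searched. Among all tested genes with a window, 16.7% had a match. Counted by window, 8 of the 44 windows of these genes (18.2%) had a match, and 12.4% of all 32851 windows. The following 4 are shown because they belong to an NRF2-linked peroxidase, reductase, glutathione enzyme and NADPH enzyme whose values are given further on. Each is printed 5′ to 3′ on the gene's strand, with the match in capitals; all 4 matches lie on the opposite strand and so read GCNNNGTCA. They cover chr4:116685441-116685499 on the plus strand for Prdx1, chr10:82859089-82859147 on the plus strand for Txnrd1 (the second of its listed starts), chr3:122245398-122245456 on the plus strand for Gclm and chrX:74428904-74428962 on the minus strand for G6pdx.
Prdx1: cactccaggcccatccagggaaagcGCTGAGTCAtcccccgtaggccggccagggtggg
Txnrd1: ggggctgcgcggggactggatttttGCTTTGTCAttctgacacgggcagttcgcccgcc
Gclm: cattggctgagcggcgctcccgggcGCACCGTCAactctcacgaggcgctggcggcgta
G6pdx: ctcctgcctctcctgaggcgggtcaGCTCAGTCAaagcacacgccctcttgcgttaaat
The match starts at position -133 from the transcription start in Prdx1, -92 in Txnrd1, -134 in Gclm and -57 in G6pdx. A match is a description of the letters and not a measured binding site, and the windows of Txn1, Txnrd3 and Gss, which lead the results, did not hold these letters. Of the 8 genes with a match, the libraries of the groups did not overlap for 2, Prdx1 and Txnrd1, both lower in pyruvate medium, where 11.9% of all tested genes were higher and 10.6% lower in every pyruvate library.

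Library totals lay between 20918312 and 26413080 counts, so that 3 counts correspond to 0.116 to 0.143 CPM (counts corrected for library size with edgeR's TMM factors). The 40 genes took 0.615% to 0.750% of the counts of a library. All 12 germline stem cell markers checked were expressed, with summed levels of 3555 to 4348 CPM in control and 3204 to 3776 CPM in pyruvate libraries. Of these, 1 (Nanos2, log2 0.52) was higher and 2 (Lhx1, -0.42, and Bcl6b, -0.50) lower in every pyruvate library. Among all tested genes, 11.9% were higher and 10.6% lower in this way. Control replicate 2 stood apart: across tested genes its log2 CPM correlated at 0.987 and 0.988 with the other controls, which correlated at 0.994 with each other. To a lesser degree pyruvate replicate 1 did too, at 0.992 with each of the other pyruvate libraries, which correlated at 0.995 with each other. Whether each library is its own culture is not stated in the labels, so p-values measure the spread between these libraries, which may be technical. Of 10 fibroblast and mesenchymal markers, 2 (Col1a1 and Col5a1) were higher and 1 (Pdgfra) lower in every pyruvate library (all genes, 11.9% and 10.6%). The summed level of the 10 was 289 to 316 CPM in control and 362 to 397 CPM in pyruvate libraries. Col5a1 made up most of that sum, at 198 to 209 CPM in control and 232 to 299 CPM in pyruvate libraries, and Col1a1 stood at 48.5 to 53.0 and 57.6 to 82.0 CPM. Dcn and Lum were the scarcest of the list, at 0.116 to 0.682 CPM, and 0 of the 10 markers were without counts in every library. The part of other cell types in the results was not tested. Sertoli, Leydig, macrophage and endothelial marker sums overlapped between the groups, at most 36.6 CPM, and Hsd3b1 and Insl3 of the Leydig list and Adgre1 of the macrophage list had 0 counts in every library. Of the markers in these 6 lists, 0 passed the test. In bulk RNA, fewer cells of a type and less RNA per cell cannot be told apart.

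With all libraries, 0 of the 40 genes passed an adjusted p of 0.05 in the quasi-likelihood test of edgeR, where 8 of 14912 tested genes (0.0536%) did. By limma-voom the count was also 0, and by DESeq2 it was 2, Txn1 lower and Txnrd3 higher, beside 2.3% of all genes. With each library's trend over GC content and length taken out, 5 of the 40 passed in edgeR, Gss and Txnrd3 higher and Txn1, Prdx4 and Gpx1 lower (background 5.32%). At an unadjusted p under 0.05 there were 7 of the 40, 2 higher and 5 lower in pyruvate medium, against 14.4% of all genes (7.94% higher and 6.44% lower). In 4 genes every pyruvate library lay above every control library, and in 7 every pyruvate library lay below, where 11.9% and 10.6% of all genes did. Fold changes were above 1 for 18 of the 40 (all genes, 48.1%). The median log2 fold change of the 40 was -0.02 (all genes, -0.01), and the median size of the change was 0.11 against 0.14 for all genes.

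Most fold change intervals of these genes were narrow. For 37 of the 40 genes the 95% interval of the fold change lay within 1.5-fold either way, against 63.7% of all genes; the 40 are also more abundant, with a median of 85.6 CPM against 25.2 CPM. The exceptions were Txn1, Gss and Rpe, and the intervals of all 40 lay within 2-fold, against 86.8% of all genes.

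**Figure D1:**
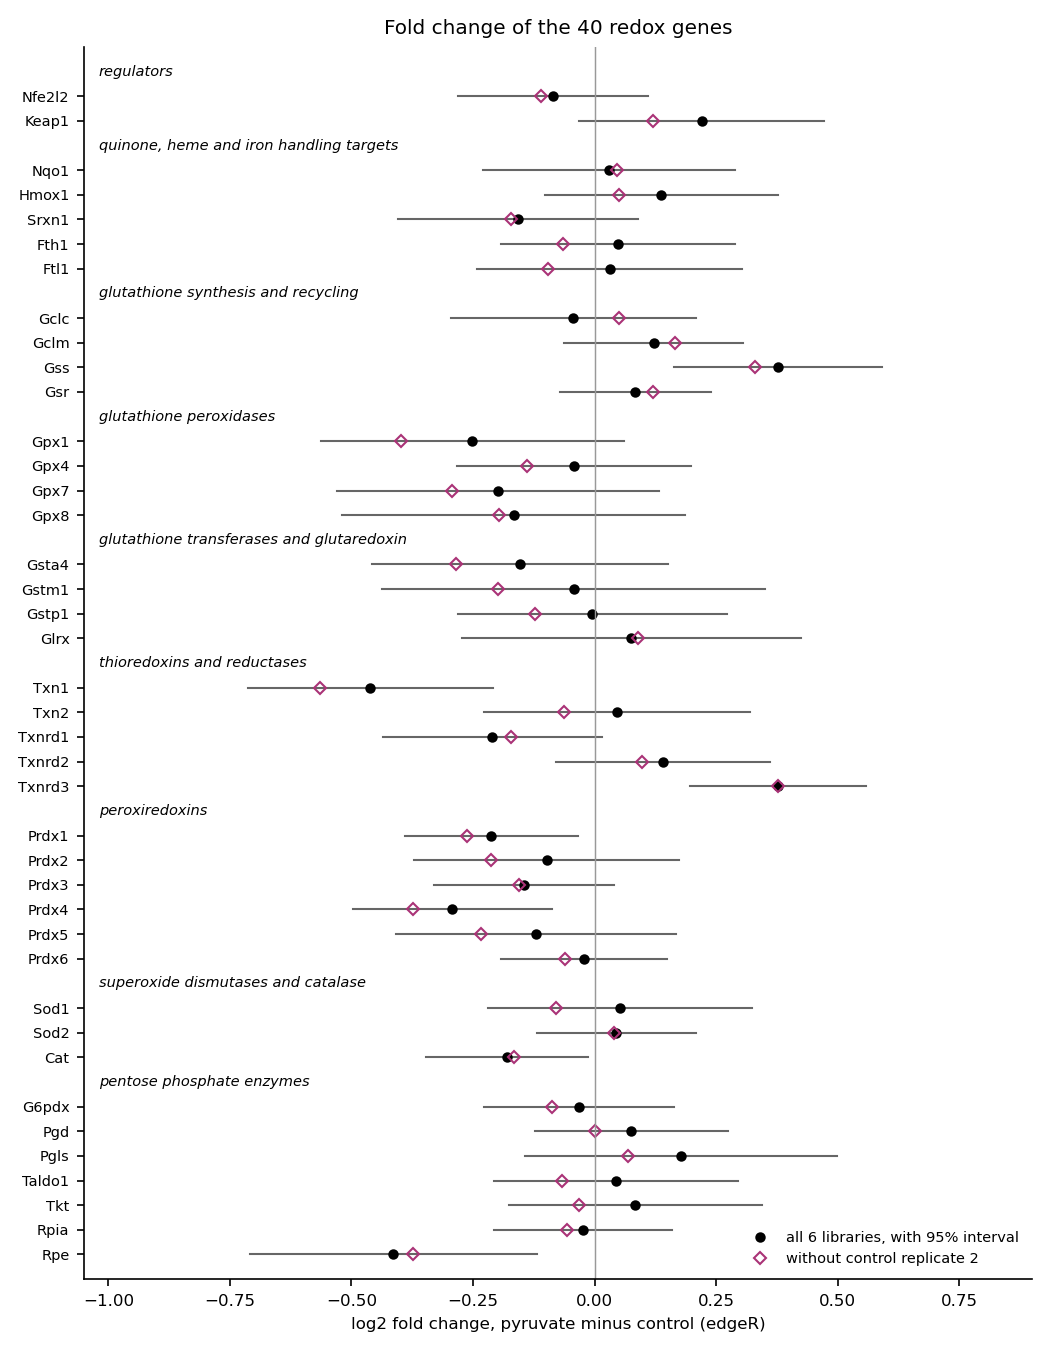
Log2 fold change (pyruvate minus control, x axis) of each of the 40 genes, grouped by role. Filled points with lines are the edgeR estimate and its 95% interval over all 6 libraries, and open diamonds the estimate without control replicate 2. Txn1 and Rpe lie farthest to the left and Txnrd3 and Gss farthest to the right.

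Control replicate 2 was often the low control for these genes. It lay below both other controls in 29 of the 40 (72.5%) and above both in 6, while over all tested genes it lay below in 43.0% and above in 43.0%. Without it, 5 of the 40 genes passed over all genes (background 4.16%): Txn1, Prdx1, Prdx4 and Gpx1 fell (background 1.82%) and Txnrd3 rose (background 2.33%). In that fit the median of the 40 moved to -0.08, against 0.01 for all genes. The groups then did not overlap for 6 genes higher and 20 lower in pyruvate medium, where 20.9% and 20.1% of all genes were in these classes. Leaving out the low control of most of these genes lowers their fold changes by itself. The shift is no separate evidence of a fall. The remaining controls correlated at 0.994 with each other and at 0.987 and 0.988 with control replicate 2. The adjusted p-values of that fit, here and by gene below, thus rest on a smaller control spread. With any other single library left out, 0 of the 40 passed.

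**Figure D2:**
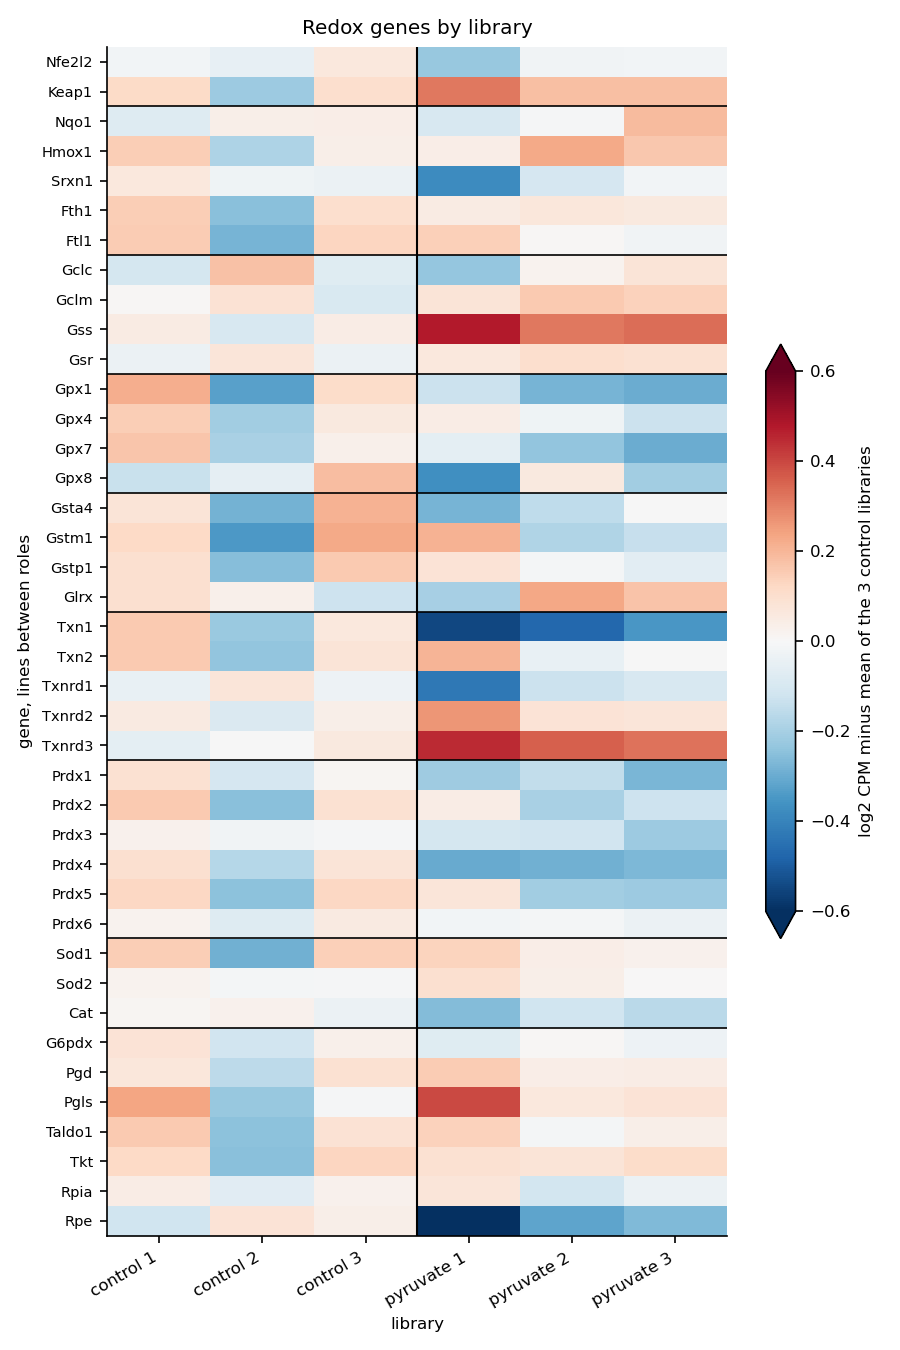
Log2 CPM of the 40 genes in each library minus the mean of the 3 control libraries (color), with lines between roles and between the groups. The control replicate 2 column is blue for 29 genes that lie below both other controls, and the Txn1 row is blue in all 3 pyruvate libraries while the Txnrd3 and Gss rows are red.

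In the thioredoxin system 0 of 5 genes passed with all libraries, and in 4 of the 5 the groups did not overlap, 2 higher and 2 lower in pyruvate medium (all genes, 11.9% and 10.6%). Txn1 (ENSMUSG00000028367, chromosome 4, 57943373 to 57956411, GRCm38) encodes cytosolic thioredoxin, the small protein that hands electrons to peroxiredoxins and ribonucleotide reductase. It stood at 170.2, 131 and 159 CPM in control replicates 1, 2 and 3 and at 105, 109.8 and 119.8 CPM in pyruvate replicates 1, 2 and 3. Every pyruvate library was below every control, with means of 153 ± 20.5 and 111 ± 7.75 CPM (SD, n = 3 per group). The log2 fold change was -0.46 (SE 0.11, 95% interval -0.71 to -0.21, edgeR adjusted p = 0.149). Without control replicate 2 it fell by 0.57 on the log2 scale (adjusted p = 0.00431), and over 16 alternative fits its adjusted p ran from 0.00431 to 0.413, past the threshold in 5.

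Txnrd3 (ENSMUSG00000000811, chromosome 6, 89643988 to 89675529) encodes thioredoxin-glutathione reductase, a selenoprotein known mainly from testis. Its level was 58.1, 60.4 and 63.0 CPM in the controls and 82.5, 77.5 and 75.9 CPM in the pyruvate libraries. Here the groups were separated upward, with means of 60.5 ± 2.48 and 78.6 ± 3.42 CPM. The log2 fold change was 0.38 (SE 0.079, 95% interval 0.20 to 0.56, adjusted p = 0.124 in edgeR), and 0.38 with adjusted p = 0.0252 without control replicate 2 (range over the alternatives 0.0104 to 0.394, 4 of 16 past the threshold). Txnrd1, the abundant cytosolic reductase, went the other way: 536, 581 and 539.6 CPM in control and 410.3, 505 and 516 CPM in pyruvate libraries. Its groups did not overlap, but pyruvate replicate 1 alone was far below the rest, and the log2 fold change of -0.21 (SE 0.099) had an edgeR adjusted p of 0.378. Txnrd2, the mitochondrial reductase, was higher in every pyruvate library (24.1 to 26.5 CPM against 26.9 to 30.8 CPM, log2 0.14, edgeR adjusted p = 0.538). Txn2, the mitochondrial thioredoxin, overlapped (log2 0.05, edgeR adjusted p = 0.888).

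Per length of exon, Txn1 was the most abundant of the 5 at 146 CPM per kb in control, followed by Txnrd1 at 77.9, Txnrd3 at 21.3, Txn2 at 18.6 and Txnrd2 at 5.82 CPM per kb. In pyruvate medium the order was the same, with 106, 67.3, 27.7, 19.2 and 6.41 CPM per kb. The length is that of all annotated exons merged, and the order depends on it. In control CPM, Txnrd1 (552) stood above Txn1 (153) and Txn2 (78.3) above Txnrd3 (60.5).

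**Figure D3:**
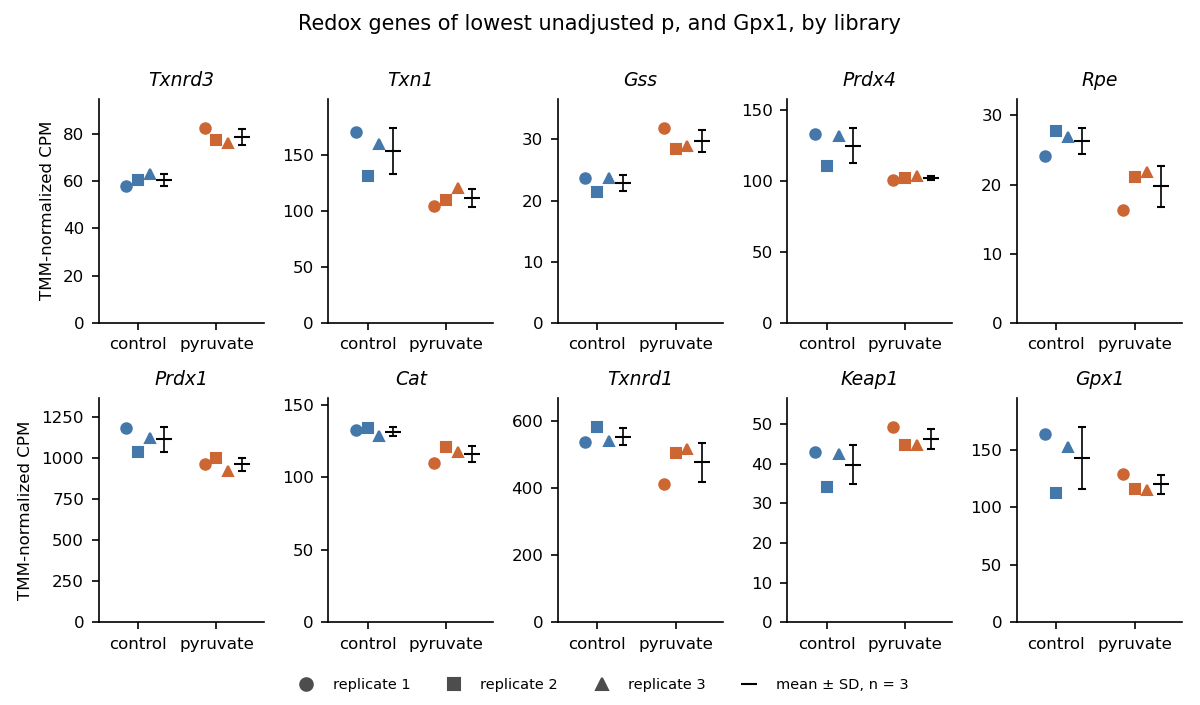
TMM-normalized CPM (y axis, from 0) of 10 genes in each control (blue) and pyruvate (orange) library, with symbols for replicate numbers and bars for mean ± SD of 3 libraries. The groups are apart in the first 9 panels, and in the Gpx1 panel control replicate 2 lies with the pyruvate libraries. The genes are shown as those of lowest p in the list, which favors separation (all genes, 11.9% higher and 10.6% lower in every pyruvate library).

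Peroxiredoxins, most of which reduce peroxides with electrons from thioredoxin, had log2 fold changes below 0 for 6 of 6 genes (median -0.13). Over all tested genes 48.1% were above 0. With library totals as the scaling, or without control replicate 3, Prdx6 stood above 0. None passed the test with all libraries, and 3 of the 6 were lower in every pyruvate library (all genes, 10.6%). Prdx4 (ENSMUSG00000025289, chromosome X, 155323918 to 155340754), the peroxiredoxin of the endoplasmic reticulum, stood at 133, 110.4 and 131 CPM in control and 101, 102 and 103 CPM in pyruvate libraries. Its pyruvate libraries were nearly level and below all controls. Its log2 fold change was -0.29 (SE 0.089, 95% interval -0.50 to -0.09, edgeR adjusted p = 0.209), and without control replicate 2 the gene fell by 0.37 (adjusted p = 0.0110; range over the alternatives 0.00674 to 0.496, 3 of 16 past the threshold).

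Prdx1 (ENSMUSG00000028691, chromosome 4, 116685544 to 116700822), the main cytosolic peroxiredoxin and a known NRF2 target, stood at 1187, 1039 and 1123 CPM in control and 963, 1005 and 922 CPM in pyruvate libraries. The lowest control and the highest pyruvate library were close, and 10.9% of its 50-base stretches occur in other genes' transcripts. Prdx1 had a log2 fold change of -0.21 (SE 0.078, edgeR adjusted p = 0.276), and -0.26 with adjusted p = 0.0425 without control replicate 2, the only one of 16 alternatives past the threshold (up to 0.569). Prdx3, the mitochondrial form, stood at 39.2, 37.9 and 38.3 CPM in control and 35.7, 35.5 and 33.1 CPM in pyruvate libraries (log2 -0.15, edgeR adjusted p = 0.456). The remaining genes Prdx2, Prdx5 and Prdx6 overlapped between the groups, with log2 fold changes of -0.10, -0.12 and -0.02, and exons of Trmt112 on the opposite strand cover 19.1% of Prdx5 and those of Junb and Rnaseh2a 11.5% of Prdx2. Per length, Prdx1 stood at 367 CPM per kb in control, above Prdx4 at 59.3, Prdx5 at 58.6, Prdx2 at 44.4, Prdx3 at 26.0 and Prdx6 at 17.7 CPM per kb. The place of Prdx6 depends on its merged exon length, 4804 bases against 1478 for Prdx3. In control CPM, Prdx6 (85.1) stood above Prdx3 (38.5).

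Glutathione peroxidases had log2 fold changes below 0 for 4 of 4 genes (median -0.18), where 48.1% of all genes were above 0. None passed with all libraries. Without control replicate 1 or pyruvate replicate 3, Gpx4 stood above 0. Gpx1 (ENSMUSG00000063856, chromosome 9, 108338903 to 108340343), the main cytosolic selenoenzyme against hydrogen peroxide, stood at 164, 112 and 152 CPM in control and 129, 116 and 115 CPM in pyruvate libraries. Control replicate 2 was the lowest of all 6 libraries, so the groups overlapped. The log2 fold change was -0.25 (SE 0.14, edgeR adjusted p = 0.444), and without that library the gene fell by 0.40 (adjusted p = 0.0184; range over the alternatives 0.00781 to 0.684, 3 of 16 past the threshold).

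Gpx4, the selenoenzyme that reduces lipid peroxides and whose loss allows ferroptosis, stood at 132, 103 and 124 CPM in control and 123, 117 and 109.2 CPM in pyruvate libraries. The groups overlapped, and the log2 fold change was -0.04 (SE 0.11, 95% interval -0.28 to 0.20). Of the 50-base stretches of its longest coding transcript, 61.7% also occur in transcripts of other annotated genes, the pseudogene Gpx4-ps2 among them, so its count is uncertain. Gpx7 and Gpx8, relatives in the endoplasmic reticulum, were scarce at 4.67 and 6.96 CPM per kb in control, against 99.0 for Gpx1 and 69.6 CPM per kb for Gpx4. Their log2 fold changes were -0.20 and -0.17 (edgeR adjusted p = 0.570 and 0.664).

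In glutathione synthesis and recycling 0 of 4 genes passed, and 1, Gss, had groups that did not overlap (all genes, 11.9% higher and 10.6% lower). Gss (ENSMUSG00000027610, chromosome 2, 155563181 to 155592810), glutathione synthetase, stood at 23.7, 21.4 and 23.6 CPM in control and 31.9, 28.5 and 28.9 CPM in pyruvate libraries. The groups were separated upward, with means of 22.9 ± 1.32 and 29.8 ± 1.85 CPM. The log2 fold change was 0.38 (SE 0.094, 95% interval 0.16 to 0.59, edgeR adjusted p = 0.156), and 0.33 with adjusted p = 0.0700 without control replicate 2 (range over the alternatives 0.0233 to 0.409, 2 of 16 past the threshold, both after the GC and length correction). Exons of Acss2, Gssos1 and Gssos2 on the opposite strand cover 15.4% of its exon bases, and no source used here gives the strand setting of the counting, so its count is uncertain to that extent.

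Gclc and Gclm, the catalytic and modifier subunits of the rate-limiting glutamate-cysteine ligase, overlapped between the groups. Gclc stood at 247, 300.1 and 252 CPM in control and 226, 269.7 and 280.4 CPM in pyruvate libraries (log2 -0.04, SE 0.11). Gclm stood at 71.4, 75.2 and 66.5 CPM in control and 74.8, 79.0 and 78.1 CPM in pyruvate libraries (log2 0.12, SE 0.081). Gsr, which reduces oxidized glutathione with NADPH, stood at 246, 265 and 246 CPM in control and 263, 271 and 269 CPM in pyruvate libraries (log2 0.08, SE 0.068). The edgeR adjusted p of these 3 lay between 0.528 and 0.883.

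The transferases and glutaredoxin gave 0 of 4 past the test. Gsta4, which conjugates glutathione to the lipid peroxidation product 4-hydroxynonenal, was the most abundant at 75.2 CPM per kb in control, and its log2 fold change was -0.15 (edgeR adjusted p = 0.638). Gstm1 and Gstp1 stood at -0.04 and -0.004, and 23.1% and 62.3% of their 50-base stretches occur in other genes' transcripts, so their counts are uncertain. Glrx, glutaredoxin, which removes glutathione from proteins, was scarce at 1.05 CPM per kb (log2 0.08).

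**Figure D4:**
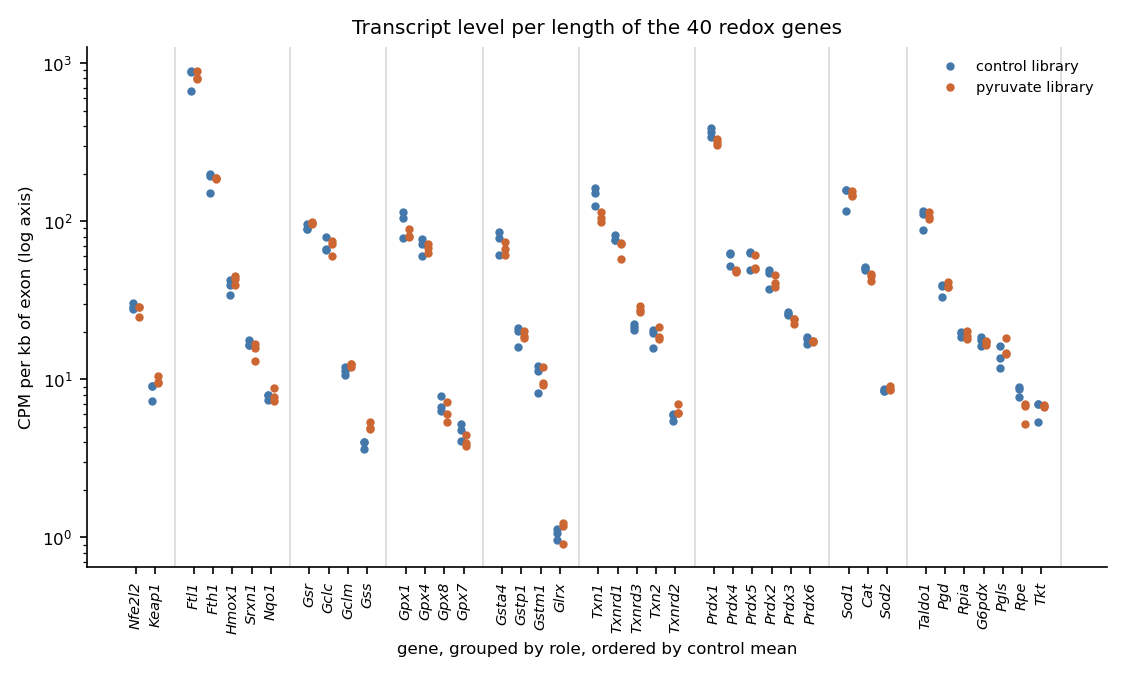
CPM per kb of exon (log y axis) of the 40 genes in each control (blue) and pyruvate (orange) library, grouped by role and ordered by control mean within a role. Levels span from Glrx at 1.05 to Ftl1 at 814 CPM per kb in control.

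Of the 2 regulators, 0 passed. Nfe2l2 (ENSMUSG00000015839, chromosome 2, 75675513 to 75704641), the gene of NRF2, stood at 109, 106 and 115 CPM in control and 93.7, 108 and 109 CPM in pyruvate libraries, and the groups overlapped (log2 -0.09, SE 0.086, edgeR adjusted p = 0.687). Keap1, its inhibitor, stood at 42.8, 34.0 and 42.3 CPM in control and 49.2, 44.7 and 44.8 CPM in pyruvate libraries. The groups did not overlap, with control replicate 2 far below the rest (log2 0.22, SE 0.11, edgeR adjusted p = 0.406), and the value was 0.12 without that library. Exons of Gm16754 on the opposite strand cover 10.9% of its exon bases. Transcript levels do not show NRF2 activity, which is set mainly by protein turnover.

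Of NRF2's textbook targets Nqo1, Hmox1, Srxn1, Fth1 and Ftl1, 0 of 5 passed, 0 had groups that did not overlap (all genes, 11.9% higher and 10.6% lower), and log2 fold changes ran from -0.16 to 0.14. Nqo1, the quinone reductase used as a readout of NRF2, stood at 11.4, 12.3 and 12.4 CPM in control and 11.2, 11.9 and 13.7 CPM in pyruvate libraries (log2 0.03, 95% interval -0.23 to 0.29). Hmox1, which breaks down heme, stood at 74.7, 59.3 and 69.2 CPM in control and 69.2, 78.8 and 75.4 CPM in pyruvate libraries (log2 0.14, 95% interval -0.10 to 0.38). Srxn1, sulfiredoxin, which repairs overoxidized peroxiredoxins, stood at 49.7, 46.7 and 46.4 CPM in control and 36.6, 44.4 and 47.0 CPM in pyruvate libraries (log2 -0.16, 95% interval -0.41 to 0.09). These intervals lie within 1.5-fold either way. The ferritin genes Fth1 and Ftl1, which store iron, stood at 181 and 814 CPM per kb in control and at log2 0.05 and 0.03. Without control replicate 2, both lay below 0, at -0.07 and -0.10. For Ftl1, 78.9% of 50-base stretches occur in other genes' transcripts, so its level is uncertain.

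Among enzymes that act on superoxide and peroxide directly, Cat, catalase, stood at 132, 134 and 128 CPM in control and 109.8, 121 and 118 CPM in pyruvate libraries. Every pyruvate library was below every control, and the log2 fold change was -0.18 (SE 0.073, 95% interval -0.35 to -0.01, edgeR adjusted p = 0.320). Sod1, the cytosolic superoxide dismutase, stood at 625, 462 and 624 CPM in control and 619, 581 and 575 CPM in pyruvate libraries. Of its 50-base stretches 23.1% occur in transcripts of Gm8566, so its count is uncertain. The groups overlapped through control replicate 2 alone (log2 0.05, and -0.08 without it, edgeR adjusted p = 0.869 and 0.464). Sod2, the mitochondrial form, varied little, at 86.4, 84.7 and 84.9 CPM in control and 91.1, 87.3 and 85.6 CPM in pyruvate libraries (log2 0.04, SE 0.071).

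In the pentose phosphate pathway 0 of 7 genes passed, and 6 of the 7 had intervals within 1.5-fold either way. G6pdx, glucose-6-phosphate dehydrogenase, the enzyme that commits glucose to NADPH production, stood at 56.9, 49.7 and 54.9 CPM in control and 51.1, 54.0 and 52.7 CPM in pyruvate libraries (log2 -0.03, 95% interval -0.23 to 0.16), and exons of Ikbkg on the opposite strand cover 13.6% of its exon bases. Pgd, the other NADPH-producing step, stood at 251, 215 and 255 CPM in control and 266, 247 and 247 CPM in pyruvate libraries (log2 0.08, 95% interval -0.12 to 0.27). Neither oxidative enzyme separated the groups. Pgls, Taldo1, Tkt and Rpia overlapped, with log2 fold changes of 0.18, 0.04, 0.08 and -0.02, and 20.6% of the exon bases of Pgls are shared with Fam129c on the same strand. For Taldo1, 10.9% of 50-base stretches occur in a transcript of Gm17823.

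Rpe (ENSMUSG00000026005, chromosome 1, 66700831 to 66719805), the epimerase that links ribulose phosphate to the non-oxidative branch, was the exception. It stood at 24.1, 27.8 and 26.9 CPM in control and 16.3, 21.1 and 21.9 CPM in pyruvate libraries, separated downward. Its log2 fold change was -0.41 (SE 0.13, 95% interval -0.71 to -0.12, edgeR adjusted p = 0.217), and -0.37 with adjusted p = 0.128 without control replicate 2 (range over the alternatives 0.0607 to 0.478). Exons of Kansl1l on the opposite strand cover 17.9% of its exon bases, so its count is uncertain to that extent.

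Of 92 further genes of the same pathways, 85 were tested, and 1 changed with all libraries, where 8 of 14912 tested genes (0.0536%) did. This was Txnip, which binds and inhibits thioredoxin, and which fell. It stood at 258, 281 and 250.4 CPM in control and 117, 107 and 97.2 CPM in pyruvate libraries (log2 -1.30, SE 0.091, edgeR adjusted p = 0.00525; range over the alternatives 3.55e-27 to 0.130, 14 of 16 past the threshold, the exceptions being 0.130 without pyruvate replicate 2 and 0.0716 without pyruvate replicate 3). Exons of Gm15441 on the opposite strand cover 19.4% of its exon bases, so its count is uncertain to that extent. Txn1 and Txnip were both lower in every pyruvate library. By class, 0 of 10 partners and regulators of NRF2, 0 of 13 genes of cystine supply and glutathione turnover, 0 of 16 other glutathione enzymes, 1 of 12 other thioredoxin-fold and methionine sulfoxide enzymes, 0 of 15 other defence genes, 0 of 12 other NADPH sources and 0 of 7 selenoprotein synthesis genes passed. At an unadjusted p under 0.05 there were 11 higher and 9 lower of 85, where 7.94% and 6.44% of all genes were. In 11 of the 85 every pyruvate library lay above every control, and in 15 below, where 11.9% and 10.6% of all genes did. Without control replicate 2, Gsta3, Mgst2 and Idh1 rose and Txnip, Idh2, Txndc5 and Cbr3 fell, where 2.33% and 1.82% of all genes did.

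The cytosolic and mitochondrial NADP-linked isocitrate dehydrogenases had fold changes of opposite sign, and neither passed with all libraries. Idh1, the cytosolic and peroxisomal enzyme, stood at 41.5, 49.4 and 40.9 CPM in control and 70.4, 66.1 and 57.1 CPM in pyruvate libraries (log2 0.55, SE 0.11, edgeR adjusted p = 0.123). Idh2, the mitochondrial enzyme, stood at 6.90, 6.95 and 6.35 CPM in control and 4.10, 4.03 and 4.05 CPM in pyruvate libraries (log2 -0.73, SE 0.12, edgeR adjusted p = 0.0850). Both separated the groups (all genes, 11.9% higher and 10.6% lower), and both were among the 6 further genes of lowest p, which favors separation. Without control replicate 2, Idh1 rose by 0.65 (adjusted p = 0.00913) and Idh2 fell by 0.71 (adjusted p = 0.0289); over the alternatives the adjusted p ran from 0.00130 to 0.394 and from 0.00514 to 0.354, each past the threshold in 5 of 16. Me1, cytosolic malic enzyme, stood at 37.2, 37.9 and 35.9 CPM in control and 28.0, 32.2 and 30.7 CPM in pyruvate libraries (log2 -0.29, SE 0.089, edgeR adjusted p = 0.213), and 26.5% of its 50-base stretches occur in other genes' transcripts.

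Aldh1l1, a cytosolic folate enzyme that yields NADPH, was scarce and higher in every pyruvate library: 0.368, 0.511 and 0.860 CPM in control and 1.99, 1.59 and 1.5 CPM in pyruvate libraries (log2 1.55, SE 0.32, edgeR adjusted p = 0.116; range over 15 alternatives 0.0115 to 0.357, 3 past the threshold). Gsta3, a glutathione transferase, stood at 3.72, 4.12 and 3.20 CPM in control and 6.14, 7.29 and 7.09 CPM in pyruvate libraries (log2 0.89, SE 0.15, edgeR adjusted p = 0.0850, and 0.0156 without control replicate 2; range over the alternatives 0.00132 to 0.380). Oplah, which opens 5-oxoproline in glutathione turnover, stood at 16.9, 16.7 and 17.9 CPM in control and 22.9, 20.9 and 21.8 CPM in pyruvate libraries (log2 0.35, edgeR adjusted p = 0.166). All 3 separated the groups upward (all genes, 11.9%). They are shown as part of the 6 further genes of lowest p, which favors separation. Opposite-strand exons cover 11% of Aldh1l1 and 11.7% of Oplah. Slc7a11, the cystine carrier, was scarce, at 0.782, 2.12 and 0.907 CPM in control and 0.996, 1.44 and 1.18 CPM in pyruvate libraries. Control replicate 2 was the highest of the 6, and the groups overlapped.

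**Figure D5:**
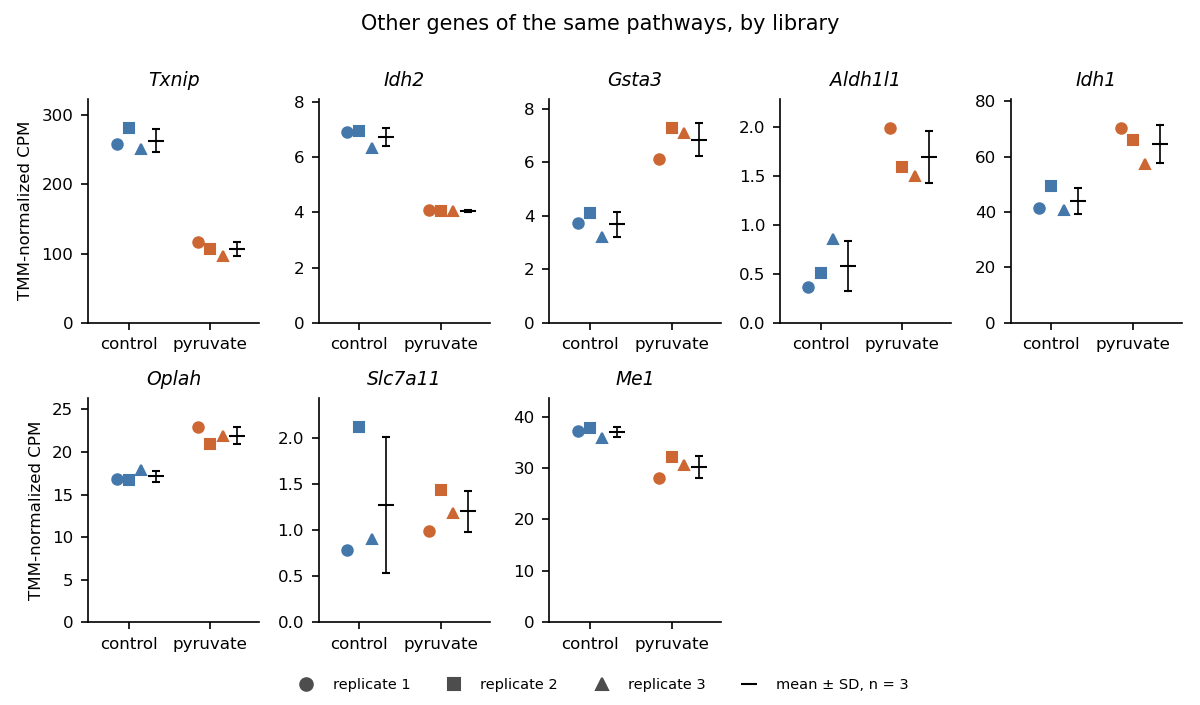
TMM-normalized CPM (y axis, from 0) of 8 further redox genes in each control (blue) and pyruvate (orange) library, with symbols for replicate numbers and bars for mean ± SD of 3 libraries. Txnip, Idh2 and Me1 are lower and Idh1, Gsta3, Aldh1l1 and Oplah higher in every pyruvate library, and Slc7a11 overlaps.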

How the data were processed

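RNA was sequenced in 6 libraries of cultured mouse cells. The table the authors deposited holds raw counts for each gene, without normalization. Per the submitters' processing notes, bcl2fastq 2.20, cutadapt 4.6, STAR 2.7.11a and HTSeq 2.0.5 were used with build mm10, and per the labels' protocols the library kit was stranded. No source used here gives the strand setting, annotation release or filters of the counting. A further 3 columns of per-sample values entered no step, and 0 lines lacked a gene identifier. Symbols, positions and exon lengths came from GENCODE M21 (GRCm38), which named 32235 genes of the table; Nnt was not analysed here.

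The test was run in edgeR 4.0.16 (R 4.3.3): filterByExpr with a minimum count of 10, TMM factors, the robust quasi-likelihood test without covariates, and Benjamini-Hochberg adjustment over 14912 genes at 0.05. Each standard error is the absolute log2 fold change over the square root of F. Levels are TMM-normalized CPM, per kb of merged exons where genes are compared. Merged exons are all annotated exons of a gene and not the transcripts expressed here, so rankings per kb are approximate. The 16 alternatives were other scalings and filters, DESeq2 1.42.0, limma-voom 3.58.1, the replicate number as a block, a correction for trends over GC content and length within each library (splines with 5 degrees of freedom, values for 14908 genes), both together, and leaving out each library. Library pairs within a group differed by more than sampling noise (chi-square per gene 3.11 to 47.5). The code was tested on simulated data.

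The genes and lists were chosen with earlier results of these data known. Library values are given for the 12 of the 40 genes with the lowest p, those past the threshold with all libraries or without 1, and 18 fixed by name; of further genes, for those past the threshold, the 6 with the lowest p and 4 fixed by name. Other named genes were chosen after their values were seen. Intervals cover the spread between libraries and are not adjusted over genes.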

Additional observations from a re-analysis of the deposited data

How the results depend on the processing

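The count of changed genes over the whole table was 8 with all libraries (3 higher, 5 lower). It was 14 with library totals (8 higher, 6 lower) and 15 with upper-quartile scaling (8 higher, 7 lower). With no filter it was 83 of 22392 genes, with DESeq2 317 (2.3%), and with GC and length trends removed 794 (5.32%). When 1 library was left out it was 0 to 625. It was 625 (4.16%) with control replicate 2 left out, 3 with control replicate 1, and 1 each with control replicate 3 and pyruvate replicate 1. It was 0 with pyruvate replicate 2 or 3. The count among the 40 genes was 0 with all libraries, 2 with DESeq2, 5 with trends removed (Gss, Gpx1, Txn1, Txnrd3 and Prdx4), and 0 to 5 when 1 library was left out, with the 5 without control replicate 2. Among further genes it was 1 of 85 tested, and 2 with no filter. It was 5 with DESeq2 (all genes, 2.3%) and 10 with trends removed (all genes, 5.32%). When 1 library was left out it was 0 to 7, with 7 without control replicate 2 (all genes, 4.16%). It was 0 without pyruvate replicate 2 or 3, where Txnip reached edgeR adjusted p = 0.130 and 0.0716. The cause was not tested.

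Replicate numbers are shared by the groups, but the samples share only a number: deviations of same-numbered libraries correlated at 0.31, 0.31 and -0.07, and control replicate 3 correlated best with pyruvate replicate 1 (0.21). With the replicate number as a block, 265 of 14912 tested genes passed, with 1 of the 40 (Txn1) and 4 of 85 further genes. With the block and trend removal it was 1445 of 14912, 6 of the 40 and 12 of 85.

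The median log2 fold change of the 40 genes stayed between -0.08 and 0.02 in all alternatives. Signs turned for genes near 0 with all libraries, and for the scarce Slc7a11 (log2 -0.10, SE 0.39). Fth1, Ftl1, Txn2, Taldo1, Tkt, Gstm1, Gstp1, Glrx, Prdx6 and Rpia were among those that turned with 1 library left out. Leaving out 1 library moved Nqo1 between -0.053 and 0.096, Gclc between -0.11 and 0.051, Gpx4 between -0.14 and 0.036, Sod1 between -0.079 and 0.13, G6pdx between -0.088 and 0.0098 and Slc7a11 between -0.35 and 0.51. With trends removed Sod1 stood at -0.0017 and Slc7a11 at 0.052, with the block added at -0.00055 and 0.087, and Slc7a11 at 0.017 with limma-voom. Txn1, Prdx1, Prdx4, Gpx1 and Rpe were below 0, and Txnrd3 and Gss above 0, in all 16 alternatives. The same held for Nfe2l2, Srxn1, Cat, Prdx3 and Txnrd1 below 0. It also held for Keap1, Hmox1, Gclm, Gsr, Sod2 and Pgd above 0, with Pgd as low as 0.0008. A constant sign thus does not set the leading genes apart, and the alternatives share the same libraries. Depth limits the scarce genes: Slc7a11 had 17 to 54 counts and Aldh1l1 8 to 50 counts in a library.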
